A study of Mus musculus with 10 samples.

Results

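The genes of the major histocompatibility complex (MHC) and of antigen processing were examined in CD4+ T cells from tumour-bearing mice. All rows of the expression table whose symbol begins with H2-, together with B2m, Cd74, Ciita, Nlrc5, Tap1, Tap2 and Tapbp, were taken, which gave 43 genes (36 and 7) of 17457. Their transcript levels were followed across 10 RNA-sequencing libraries, 7 from C57BL/6 mice, which carry the H2b haplotype, and 3 from BALB/c mice, which carry H2d. The labels divide the same libraries into 6 TEST and 4 CONTROL samples, and the study's comparison asks which genes differ between T cells exposed in the animal to the epithelial cytokine TSLP and able to respond to it, and control T cells.

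Among the C57BL/6 libraries, TEST 1 to TEST 3 came from K14-TSLP +/tg, TSLPR -/- hosts given Ly5.1 CD4+ T cells. TEST 1 was from tumour-draining lymph nodes and TEST 2 from non-draining nodes of the same 4 pooled mice, and TEST 3 was from non-draining nodes of 2 mice. CONTROL 1 (draining nodes, 4 mice pooled) and CONTROL 2 (draining and non-draining nodes, 1 mouse) came from TSLPR -/- hosts given TSLPRKO CD4+ T cells. All of these hosts were injected with PyMT tumours. TEST 4 was a K14-TSLP +/tg, MMTV-PyMT +/tg, TSLPR +/- mouse sampled at lymph nodes, and CONTROL 3 a K14-TSLP +/tg, MMTV-PyMT +/tg, TSLPR -/- mouse sampled at the spleen. Among the BALB/c libraries, all from lymph nodes of 1 mouse each, TEST 5 was K14-TSLP +/tg, MMTV-PyMT +/tg, Rag1 -/- and had been given CD4+ T cells when 4 weeks old, TEST 6 was K14-TSLP +/tg, MMTV-PyMT +/tg, Rag1 +/-, and CONTROL 4 was Rag1 +/-, with no transgene named in its label. Rag1 -/- mice have no B or T cells of their own, the K14 promoter drives TSLP in keratinocytes, and the MMTV promoter drives the PyMT oncogene in mammary epithelium. Per the labels every library was made from T cells sorted at terminal tumour stage and stimulated in vitro for 5 h with antibodies to CD3 and CD28, IL-2 and TSLP, whereas the study's text calls the cells freshly sorted. The ages of the mice are not given in the sources used here.

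Class I molecules consist of a heavy chain, B2m as the light chain, and a peptide that the proteasome cuts in the cytosol and the Tap1 and Tap2 transporter carries into the endoplasmic reticulum, where Tapbp holds the empty heavy chain for loading. The classical heavy chains H2-K, H2-D and H2-L present peptides to CD8+ T cells, and the Q, T and M regions encode nonclassical heavy chains. Class II molecules are pairs of alpha and beta chains (H2-Aa with H2-Ab1, H2-Ea with H2-Eb1) assembled on the invariant chain Cd74 and loaded with the help of H2-DM, which H2-DO restrains, and professional antigen-presenting cells make them for CD4+ T cells to read. Mouse CD4+ T cells are not known as class II producers. The H2b haplotype carries no H2-L gene and a defective H2-Ea gene, whereas H2d mice express both. Nlrc5 is the transactivator of class I genes and Ciita that of class II genes.

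Of the 43 genes, 39 were matched to transcripts of GENCODE M21 on GRCm38, the assembly also called mm10, and 35 of these lie on chromosome 17. The outermost are Tapbp, which starts at 33915899, and H2-M2, which ends at 37483552. H2-L, H2-T9, H2-Q8 and H2-Ea-ps were not matched. B2m lies at chr2:122147686-122153083, Nlrc5 at chr8:94434356-94527272 and Ciita at chr16:10480059-10528418. H2-K1 lies at chr17:33996017-34000347 on the minus strand, and H2-D1 at chr17:35262730-35267499 and H2-Q6 at chr17:35424850-35430055 on the plus strand.

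The promoters of 3 class I genes share the kappa B site of enhancer A, a well-known element of class I promoters, and they are shown because the levels of the same 3 genes followed different patterns across the libraries. The 51 bases that follow are from the RefSeq promoter windows on GRCm38.p6 (250 bases before to 50 after each start), read 5′ to 3′ on the strand of the gene, with GGGGATTCCCC in capitals. The H2-K1 stretch is chr17:34000428-34000478 (minus strand), that of H2-D1 is chr17:35262903-35262953 (plus strand) and that of H2-Q6 is chr17:35424657-35424707 (plus strand).
H2-K1: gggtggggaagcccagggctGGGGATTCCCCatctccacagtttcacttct
H2-D1: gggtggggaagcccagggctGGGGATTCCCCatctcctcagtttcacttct
H2-Q6: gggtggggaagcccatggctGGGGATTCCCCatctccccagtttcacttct
The H2-K1 and H2-D1 stretches differ at 1 of 51 positions, and the H2-Q6 stretch differs from each of them at 2. Searched on both strands, these letters occurred in 3 of the 27 genes that had a promoter window, and in 0.0304% of 32851 windows in all.

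Class II promoters are known for a Y box, an inverted CCAAT element. It is shown for 1 alpha chain, 1 beta chain and the beta chain of H2-DO, with GATTGG, or its reverse complement CCAATC, in capitals. The stretches are chr17:34287847-34287892 (minus strand), chr17:34305787-34305857 (plus strand) and chr17:34238827-34238872 (plus strand), in that order.
H2-Aa: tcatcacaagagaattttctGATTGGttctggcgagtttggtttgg
H2-Eb1: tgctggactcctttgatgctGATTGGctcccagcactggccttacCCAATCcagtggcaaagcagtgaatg
H2-Ob: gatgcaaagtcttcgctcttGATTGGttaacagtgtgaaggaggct
On either strand the letters occurred in 19 of the 27 genes and in 16.1% of all windows. The 19 include class I genes, among them H2-K1, H2-D1 and H2-Q6. A gene was counted if any of its windows held the letters, so the shares of genes and of windows are unlike measures. GAAANNGAAA, the core of interferon response elements, occurred in B2m, H2-T22 and H2-T23 (3.44% of all windows), and TGACG, the core of cyclic AMP response elements, in 11 of the 27 genes (20.8% of all windows). These are matches of letters and were not tested as binding sites.

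Levels are given in FPKM, a fragment count scaled to the length of the transcript and the size of the library. Read counts are not part of the table and the depth behind each value is unknown, so the number of libraries sets the precision. The cells carried T cell transcripts throughout, with 8 of 8 listed T cell markers at FPKM 1 or more in every library and of the CD8 T cell markers Cd8a was at 0.2 to 1.33 and Cd8b1 at 0.63 to 5.12. Crlf2, which encodes the TSLP receptor chain, was at 5.7 to 34.9 in TEST libraries and at 0.15 to 0.21 in CONTROL 1 to CONTROL 3, while CONTROL 4, whose genotype carries no receptor deletion, was at 3.28. TEST 4 stood apart. Ribosomal RNA rows made up 1.18% of its summed FPKM against 10.7% to 26.0% in the other libraries, and it was the highest library for 37.7% of the 11092 genes that reached FPKM 1 in 3 libraries. With those rows left out and each library scaled to the same total, that share was 15.1%. TEST 1 and TEST 2 came from the same mice. No label says that other libraries of a group were more than separate samples, and p-values measure the spread between these libraries.

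The largest differences among the MHC genes lay between the strains. With group as a covariate, 8 of the 35 genes that passed the filter (an FPKM of at least 1 in 3 or more libraries) were called at an adjusted p under 0.05 (limma on log2(FPKM + 1), two-sided, Benjamini-Hochberg adjustment over 11092 genes). This is 22.9% of them, against 0.631% of all genes tested. H2-L, H2-Q1, H2-Q2, H2-Q10 and H2-T9 were higher in BALB/c, a direction called for 0.325% of all genes, and H2-K1, H2-Q9 and Cd74 were lower, a direction called for 0.307%. H2-Q1, H2-Q2, H2-Q10 and H2-T9 met the filter through the BALB/c libraries, and all of them were still called when no filter was applied, as was H2-L. The 3 genes called lower were not called without the filter (limma adjusted p = 0.0812 for H2-K1, 0.107 for H2-Q9 and 0.127 for Cd74). The median absolute log2 difference was 0.758 over the 35 genes and 0.254 over all genes tested. Every BALB/c library lay above every C57BL/6 library in 5 of the 35 genes, on FPKM as listed (1.39% of all genes). In 7 every one lay below (1.77%). Of these 7, H2-DMb1 met the filter through the C57BL/6 libraries alone. With ribosomal RNA rows left out and each library scaled to the same total, B2m, H2-Q8 and H2-T22 overlapped between the strains. The reads were aligned to mm10, which is an assembly of C57BL/6. For genes that both haplotypes carry, the strain and the fit of its reads to the reference therefore cannot be told apart. H2-L, which H2b mice lack, had values but no match in GENCODE M21, so its reference sequence is unknown here. The strains also differed in cell transfer, host, tumour model and tissue. In C57BL/6, TEST 1 to TEST 3, CONTROL 1 and CONTROL 2 were transferred cells from hosts with injected tumours, and CONTROL 3 was spleen. The BALB/c libraries were all from lymph nodes of mice with a Rag1 genotype named. These differences were not separated from strain.

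**Figure D1:**
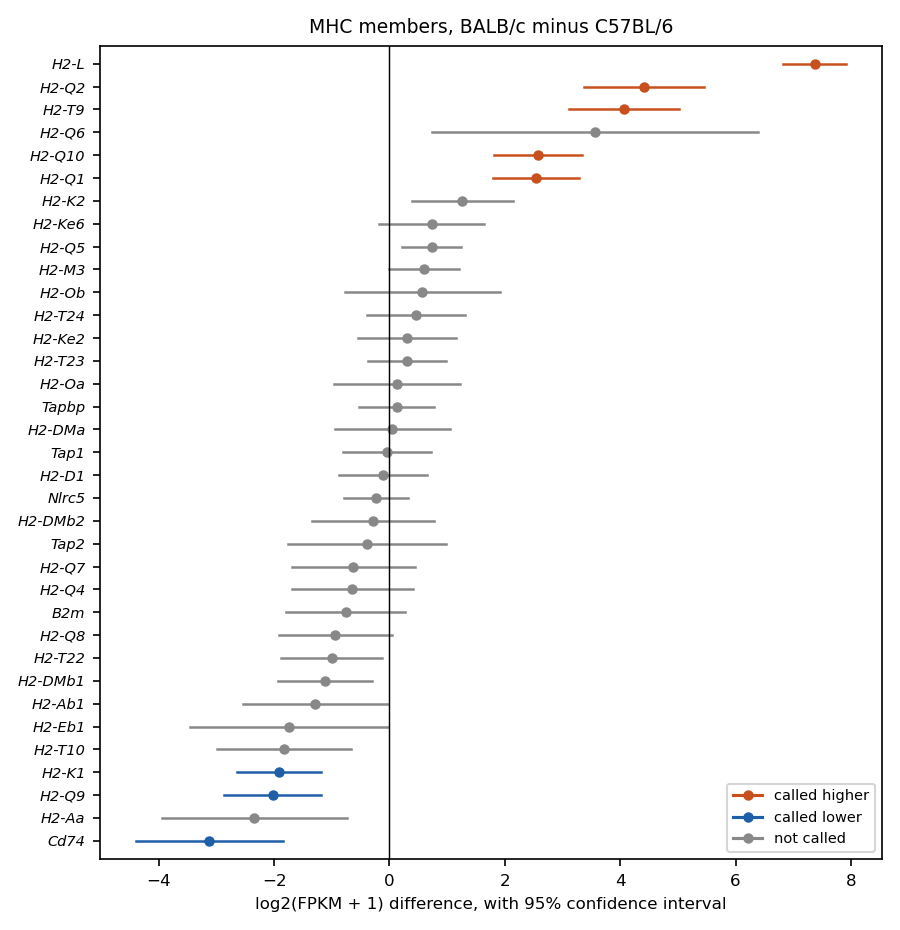
Difference between BALB/c (n = 3) and C57BL/6 (n = 7) libraries on the log2(FPKM + 1) scale for the 35 tested MHC and antigen-processing genes, with group as a covariate. Points are estimates, bars are 95% confidence intervals and colours mark calls at an adjusted p under 0.05. H2-L at 7.37 stands far to the right, and Cd74, H2-Q9 and H2-K1 are the genes called lower.

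Of the classical heavy chains, H2-L and H2-K1 separated the strains, in opposite directions, and H2-D1 did not. H2-L, the heavy chain that H2d mice have and H2b mice lack, was found at FPKM 358 (TEST 5), 369 (TEST 6) and 281 (CONTROL 4). In C57BL/6 it was at 1.38, 1.34, 0.54 and 0.81 in TEST 1 to TEST 4, and 0.84, 1.43 and 0.91 in CONTROL 1 to CONTROL 3. The strains did not overlap, with 336 ± 47.8 (SD, n = 3) in BALB/c and 1.04 ± 0.35 (SD, n = 7) in C57BL/6. The log2 difference of 7.37 ± 0.26 (SE) had the smallest p of all genes tested (limma, adjusted p = 1.79e-09), and the ratio of the means was 323. Because 1 is added before the logarithm is taken, the log2 difference understates this ratio.

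H2-K1, which encodes the K heavy chain of both haplotypes, ran the other way. In C57BL/6 it was at FPKM 1974, 1931, 1534 and 2479 in TEST 1 to TEST 4, and 1947, 1578 and 1456 in CONTROL 1 to CONTROL 3. The BALB/c libraries, at 417 (TEST 5), 604 (TEST 6) and 459 (CONTROL 4), were all below them. The means were 1843 ± 355 (SD, n = 7) and 493 ± 98.1 (SD, n = 3), and the log2 difference was -1.92 ± 0.34 (SE; limma, adjusted p = 0.0157). The call was lost without TEST 2 (adjusted p = 0.052), TEST 5 (0.0757), TEST 6 (0.0519) or CONTROL 4 (0.179), when only TEST libraries were compared (0.388) and with no filter (0.0812), with log2 differences of -2.04 to -1.76 over all 23 alternatives.

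H2-D1, the D heavy chain, overlapped between the strains. Its levels were 1011, 1141, 883 and 1902 in TEST 1 to TEST 4, and 1006, 606 and 865 in CONTROL 1 to CONTROL 3 in C57BL/6. In BALB/c they were 858 (TEST 5), 1173 (TEST 6) and 859 (CONTROL 4), inside the C57BL/6 range. The log2 difference was -0.12 ± 0.35 (SE), with a 95% confidence interval of -0.88 to 0.64 and an adjusted p of 0.962 (limma). The ratio of H2-K1 to H2-D1 within a library was 1.3 to 2.61 in C57BL/6 and 0.486 to 0.534 in BALB/c. Summed over H2-K1, H2-D1 and H2-L, the classical heavy chains were at 2185 to 4382 in C57BL/6 and at 1599 to 2146 in BALB/c. Of the 50-base stretches of the H2-K1 transcript, 8.79% also occur in other genes, and 14.3% of those of H2-D1, so a part of their reads cannot be placed by sequence alone. H2-L had no matched transcript, so its sharing with H2-K1 and H2-D1 was not computed.

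**Figure D2:**
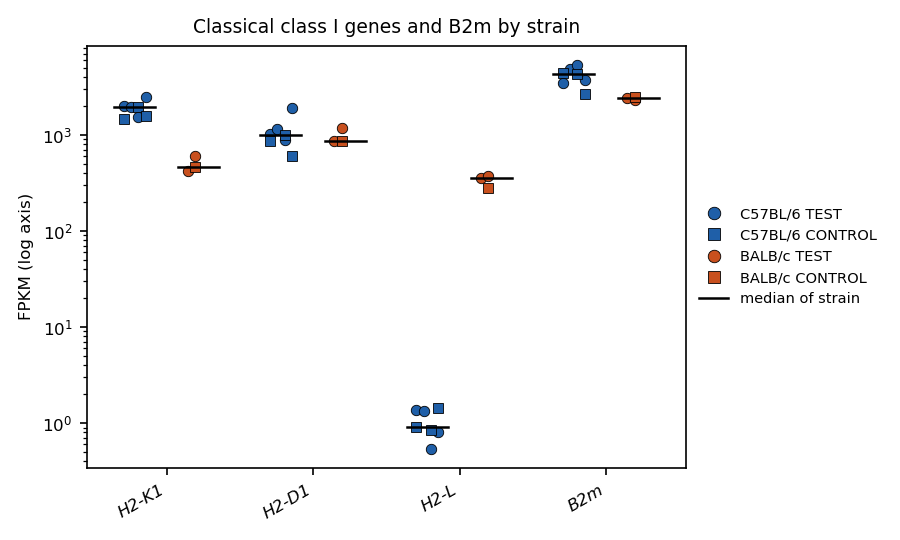
Levels of the classical class I heavy chains and B2m in each library, in FPKM on a log axis, by strain and group, with lines at the strain medians. H2-L lies at 281 to 369 in the 3 BALB/c libraries and at 0.54 to 1.43 in the 7 C57BL/6 libraries, H2-K1 is lower in BALB/c, and the H2-D1 ranges overlap.

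B2m, the light chain shared by all class I molecules, was the most abundant of the 43 genes. Its levels were 3465, 4782, 5355 and 3705 in TEST 1 to TEST 4, and 4258, 2683 and 4383 in CONTROL 1 to CONTROL 3 in C57BL/6. They were 2411 (TEST 5), 2282 (TEST 6) and 2471 (CONTROL 4), below all the C57BL/6 libraries on this scale. With ribosomal RNA rows left out and the libraries rescaled, the strains overlapped. The strain difference did not pass the test (log2 difference -0.76 ± 0.48, limma adjusted p = 0.706). The ratio of B2m to the summed classical heavy chains overlapped, at 0.846 to 2.22 in C57BL/6 and 1.06 to 1.55 in BALB/c. Together the 43 genes took 2.05% to 2.65% of the FPKM outside ribosomal RNA rows in C57BL/6 and 1.35% to 1.79% in BALB/c.

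The genes of peptide transport and loading were highest in TEST 4 as deposited. With ribosomal RNA rows left out and the libraries rescaled, this held for Tap1 and Tap2, while Tapbp was highest in TEST 5. Tap1, a subunit of the peptide transporter, was at FPKM 65.8, 57.6, 65.2 and 226 in TEST 1 to TEST 4, and 77.1, 75.7 and 67.6 in CONTROL 1 to CONTROL 3. The BALB/c levels were 88.3 (TEST 5), 72.9 (TEST 6) and 77.3 (CONTROL 4). TEST 4 was above every other library, and the remaining 9 lay between 57.6 and 88.3.

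Tap2, the other transporter subunit, was also highest in TEST 4. It was at 10.7, 9.25, 10.5 and 116 in TEST 1 to TEST 4, and 10.4, 17.3 and 5.91 in CONTROL 1 to CONTROL 3. Its BALB/c levels were 13.2 (TEST 5), 9.21 (TEST 6) and 12.3 (CONTROL 4). Outside TEST 4 the range was 5.91 to 17.3.

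Tapbp, or tapasin, was at 48.4, 56.1, 67 and 147 in TEST 1 to TEST 4, and 49.4, 53 and 47.6 in CONTROL 1 to CONTROL 3 in C57BL/6. The BALB/c levels of Tapbp were 94.2 (TEST 5), 60.9 (TEST 6) and 58.4 (CONTROL 4). TEST 4 was the highest library on this scale. None of the 3 genes was called between strains, with log2 differences of -0.04 ± 0.35, -0.38 ± 0.64 and 0.13 ± 0.30 (SE) and limma adjusted p of 0.987, 0.921 and 0.948.

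Nlrc5, the class I transactivator, was at FPKM 40.3, 34.4, 40.3 and 66.8 in TEST 1 to TEST 4, and 46.8, 53.8 and 31.1 in CONTROL 1 to CONTROL 3. The BALB/c values were 44.5 (TEST 5), 30.2 (TEST 6) and 37 (CONTROL 4), so that the strains overlapped (log2 difference -0.24 ± 0.26, limma adjusted p = 0.863). Ciita, the class II transactivator, was below 1 everywhere, at 0.07, 0.06, 0.25 and 0.54 in TEST 1 to TEST 4, and 0, 0.64 and 0.25 in CONTROL 1 to CONTROL 3 in C57BL/6, and was listed at 0 in all 3 BALB/c libraries. It did not pass the filter and was not tested.

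In the Q region, which encodes nonclassical class I heavy chains, 4 of 9 genes were called, 3 of them higher in BALB/c. H2-Q2 (chr17:35342242-35346762, plus strand) was at FPKM 37 (TEST 5), 38.3 (TEST 6) and 22.9 (CONTROL 4). In C57BL/6 it was at 0.33, 0.14, 0.17 and 5.87 in TEST 1 to TEST 4, and 0.19, 0 and 0 in CONTROL 1 to CONTROL 3, so that TEST 4 was the only C57BL/6 library above 1. The log2 difference was 4.41 ± 0.48 (SE; limma, adjusted p = 0.000205), and it was 4.37 but not called among TEST libraries alone (adjusted p = 0.0558).

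H2-Q1 (chr17:35320405-35325099, plus strand) and H2-Q10 (chr17:35470089-35474563, plus strand), the latter known as a class I molecule secreted by the liver, were called in the same direction. H2-Q1 was at 8.12 (TEST 5), 7.14 (TEST 6) and 6.1 (CONTROL 4), against 0.09, 0.29, 0 and 1.41 in TEST 1 to TEST 4, and 1.05, 0.41 and 0 in CONTROL 1 to CONTROL 3. H2-Q10 was at 12 (TEST 5), 7.68 (TEST 6) and 5.81 (CONTROL 4), against 0.6, 0.71, 0.37 and 0.12 in TEST 1 to TEST 4, and 0, 0.76 and 1.69 in CONTROL 1 to CONTROL 3. The log2 differences were 2.54 ± 0.35 and 2.58 ± 0.36 (SE; limma, adjusted p = 0.00194 and 0.00216). The call for H2-Q1 was lost with a pseudocount of 0.1 (adjusted p = 0.0549) and among TEST libraries alone (0.0653).

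H2-Q9 and H2-Q7 encode the Qa-2 antigen, and their transcripts are alike. They map to 1 GENCODE gene at chr17:35439155-35443773, and 91.2% of the 50-base stretches of H2-Q9 occur in H2-Q7, so the division of reads between them is uncertain. H2-Q9 was lower in BALB/c, at 39.8 (TEST 5), 25.3 (TEST 6) and 55.1 (CONTROL 4), than in C57BL/6, at 109, 87.8, 122 and 407 in TEST 1 to TEST 4, and 197, 159 and 208 in CONTROL 1 to CONTROL 3. The log2 difference was -2.03 ± 0.39 (SE; limma, adjusted p = 0.0273). The call was lost without TEST 5 (0.0757), TEST 6 (0.205), CONTROL 1 (0.0518), CONTROL 2 (0.0545), CONTROL 3 (0.0668) or CONTROL 4 (0.147), among TEST libraries alone (0.388) and with no filter (0.107).

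H2-Q7 overlapped between strains. It was at 91.4, 95.9, 67.2 and 393 in TEST 1 to TEST 4, and 306, 242 and 218 in CONTROL 1 to CONTROL 3 in C57BL/6 and at 142 (TEST 5), 125 (TEST 6) and 65.7 (CONTROL 4) in BALB/c. Its log2 difference was -0.62 ± 0.50 (SE; limma, adjusted p = 0.789). Summed over H2-Q7 and H2-Q9, which does not depend on how reads were divided between them, the level was 184 to 800.4 in C57BL/6 and 121 to 182 in BALB/c.

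H2-Q6 ranged from 0 to 257. Its C57BL/6 levels were 0, 0.96, 1.13 and 257 in TEST 1 to TEST 4, and 96.1, 25.5 and 56 in CONTROL 1 to CONTROL 3. Its BALB/c levels were 130.4 (TEST 5), 163 (TEST 6) and 155 (CONTROL 4). The 3 libraries from Ly5.1 donor cells, TEST 1 to TEST 3, were at 0 to 1.13, and the other 7 libraries were at 25.5 to 257. H2-Q5, H2-Q7, H2-Q9, H2-T10, H2-T24 and H2-K2 were also lower in TEST 1 to TEST 3 than in every other C57BL/6 library. So were Tap1, H2-Ob and H2-T3, the last at no more than 1.51 in any library. With ribosomal RNA rows left out, H2-Q5 and Tap1 overlapped. H2-Q7, for example, was at 67.2 to 95.9 against 218 to 393. H2-Q4, H2-Q8, H2-T22 and H2-T23 overlapped. These splits were seen in the values and were not tested, and the share of all genes with such a split was not counted. The MHC haplotype of the donor cells is not given in the labels. The study's methods keep CD45.1+ (Ly5.1) donor mice on the C57BL/6 background. The strain difference of H2-Q6 was not called (log2 difference 3.56 ± 1.31, limma adjusted p = 0.409), although it was in the fit without TEST 4. H2-Q8, a near relative, was at 61.1, 40.2, 34.7 and 234 in TEST 1 to TEST 4, and 51, 47.9 and 40.4 in CONTROL 1 to CONTROL 3. Its BALB/c levels, 26.4 (TEST 5), 30.5 (TEST 6) and 33.7 (CONTROL 4), were below every C57BL/6 library without a call (limma adjusted p = 0.569). With ribosomal RNA rows left out, H2-Q8 overlapped between the strains. The sum of H2-Q6 and H2-Q8 was 35.9 to 61.1 in TEST 1 to TEST 3 and 73.3 to 491 in the other libraries. Of the 50-base stretches of H2-Q6, 36.8% occur in other genes, which leaves its level uncertain. H2-Q8 had no matched transcript, so its sharing with H2-Q6 was not computed.

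H2-Q4 and H2-Q5 completed the abundant genes of the region. H2-Q4 was at 112, 86.1, 64.2 and 532 in TEST 1 to TEST 4, and 125, 140.3 and 103 in CONTROL 1 to CONTROL 3. BALB/c libraries were at 101 (TEST 5), 69.2 (TEST 6) and 81.6 (CONTROL 4). TEST 4 was above the other 9 libraries, which reached at most 140.3. H2-Q5, annotated as a polymorphic pseudogene, was at 134, 102, 105 and 154 in TEST 1 to TEST 4, and 188, 169 and 211 in CONTROL 1 to CONTROL 3 in C57BL/6. It was at 269 (TEST 5), 202 (TEST 6) and 243 (CONTROL 4) in BALB/c, where its log2 difference of 0.73 ± 0.24 (SE) had an unadjusted p of 0.00838 and missed the threshold after adjustment (0.322, limma).

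**Figure D3:**
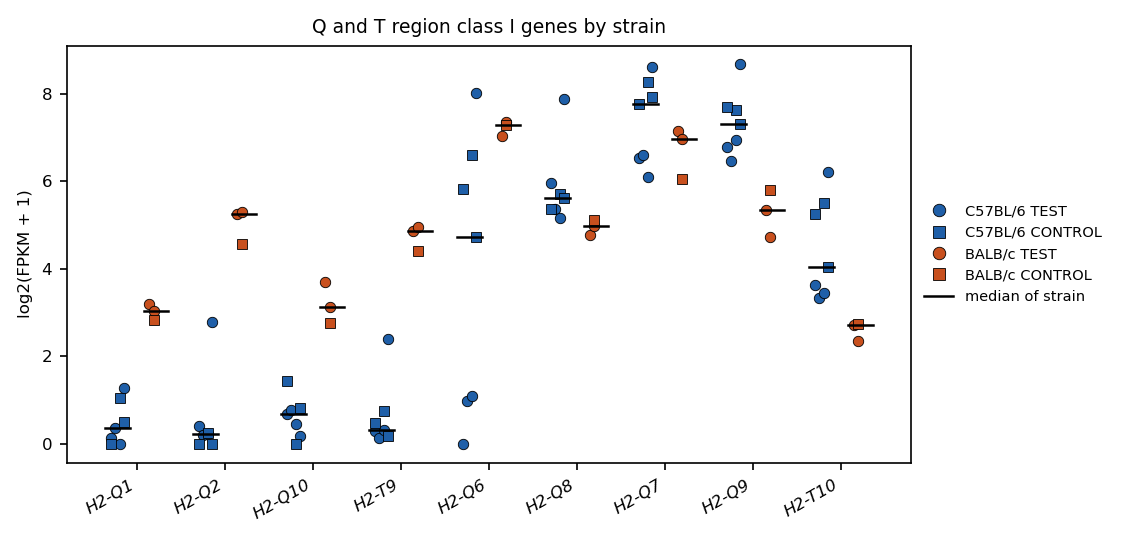
Levels of 9 class I genes of the Q and T regions in each library, as log2(FPKM + 1), by strain and group, with lines at the strain medians. H2-Q1, H2-Q2, H2-Q10 and H2-T9 are higher in all 3 BALB/c libraries, and H2-Q6 is near 0 in 3 C57BL/6 TEST libraries, TEST 1 to TEST 3.

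In the T region, 1 of 5 tested genes was called. H2-T9 was at FPKM 28.1 (TEST 5), 30.1 (TEST 6) and 20.3 (CONTROL 4). Among C57BL/6 libraries it was at 0.23, 0.1, 0.24 and 4.25 in TEST 1 to TEST 4, and 0.68, 0.12 and 0.38 in CONTROL 1 to CONTROL 3, with TEST 4 the highest. The log2 difference was 4.07 ± 0.44 (SE; limma, adjusted p = 0.000188), and the means were 26.2 ± 5.16 (SD, n = 3) and 0.86 ± 1.51 (SD, n = 7).

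H2-T23 encodes the heavy chain of Qa-1, which presents leader peptides of other class I chains to NK cell receptors. It was at 85.1, 83, 105 and 197 in TEST 1 to TEST 4, and 93, 159 and 72.3 in CONTROL 1 to CONTROL 3 and, in BALB/c, at 162 (TEST 5), 111 (TEST 6) and 131 (CONTROL 4). The strains overlapped (log2 difference 0.31 ± 0.31, limma adjusted p = 0.845).

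H2-T22 and H2-T10 are known as ligands of some gamma delta T cell receptors. H2-T22 was at 36.2, 36, 27.9 and 147 in TEST 1 to TEST 4, and 49.6, 32.6 and 39 in CONTROL 1 to CONTROL 3. All 3 BALB/c libraries, at 27.6 (TEST 5), 25.5 (TEST 6) and 15.6 (CONTROL 4), were below them. With ribosomal RNA rows left out, H2-T22 overlapped between the strains. H2-T10 in BALB/c was below every C57BL/6 library on both scales, at 4.12 to 5.66 against 9.14 to 72.8 as listed. Neither was called (limma adjusted p = 0.464 and 0.248), and 33.6% of the 50-base stretches of H2-T22 occur in H2-T10. H2-T24 was at 2.72 to 15.6 over all libraries and was not called.

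Of the other genes carrying the H2- prefix, H2-M3, which presents N-formylated bacterial peptides, was at 20.7 to 44.2 in BALB/c and 11.9 to 24.1 in C57BL/6. The pseudogene H2-K2 was at 18.4 to 27.7 and 2.98 to 19.6, with an unadjusted p of 0.00815 and an adjusted p of 0.321 (limma). Without TEST 4 both H2-K2 and H2-Q6 were called, which brought the number to 10 of 35. H2-Ke2 and H2-Ke6 lie in the K region without encoding MHC molecules. They were at 13.3 to 54.5 and 5.03 to 26 over all libraries, and neither was called.

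Class II transcripts were highest in 2 libraries, 1 of each group. H2-Aa, an alpha chain, was at FPKM 9.81, 19.7, 7.54 and 68.4 in TEST 1 to TEST 4, and 13.4, 32.4 and 11.1 in CONTROL 1 to CONTROL 3. The BALB/c levels were 17.6 (TEST 5), 0.43 (TEST 6) and 1.02 (CONTROL 4). Its partner chain H2-Ab1 was at 15, 8.42, 4.03 and 59.6 in TEST 1 to TEST 4, and 8.74, 21.3 and 11.3 in CONTROL 1 to CONTROL 3. The BALB/c levels of H2-Ab1 were 8.03 (TEST 5), 5.84 (TEST 6) and 2.54 (CONTROL 4). TEST 4 was the highest library for both chains and CONTROL 2 the next.

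H2-Eb1, the beta chain of the E molecule, was at 2.87, 1.24, 0.77 and 42.4 in TEST 1 to TEST 4, and 5.04, 6.34 and 2.06 in CONTROL 1 to CONTROL 3. In BALB/c it was at 2.29 (TEST 5), 0.14 (TEST 6) and 0 (CONTROL 4). H2-Ea-ps, the row named for the E alpha chain, was listed at 0 in 9 libraries and at 5.12 in TEST 5, a BALB/c library. H2-Eb2 was above 0 only in TEST 4 (0.62) and CONTROL 2 (0.41). H2-Aa, H2-Ab1 and H2-Eb1 had negative strain differences with unadjusted p of 0.00741, 0.0467 and 0.0467, and none passed after adjustment (limma, 0.308, 0.532 and 0.532). H2-Aa passed in the fit without TEST 5.

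Cd74, the invariant chain, had a higher FPKM than H2-Aa and H2-Eb1 in all 10 libraries and than H2-Ab1 in 9, the exception being TEST 6. It was at 129.8, 133, 66.8 and 193 in TEST 1 to TEST 4, and 116, 108 and 44.1 in CONTROL 1 to CONTROL 3 in C57BL/6. The BALB/c levels were 58.7 (TEST 5), 4.12 (TEST 6) and 5.55 (CONTROL 4), so that TEST 5 lay within the C57BL/6 range and TEST 6 and CONTROL 4 were below it. The log2 difference was -3.12 ± 0.59 (SE; limma, adjusted p = 0.0262). The call was lost in 10 of 23 alternatives, which were the fits without TEST 1 (0.0514), TEST 2 (0.0524), TEST 6 (0.17), CONTROL 1 (0.0518), CONTROL 2 (0.0682) or CONTROL 4 (0.287), among TEST libraries alone (0.483), with no filter (0.127), with a robust prior (0.0715) and with TEST 1 and TEST 2, which share their mice, averaged to 1 sample (0.0513).

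Markers of antigen-presenting cells were read beside these values. The summed FPKM of 10 B cell markers was 1.35 to 2.87 in BALB/c and 2.38 to 32.3 in C57BL/6. Of these markers Ms4a1, Pax5 and Blk were listed at 0 in all 3 BALB/c libraries, but also in TEST 2, a C57BL/6 library, so they did not separate the strains. Cr2 went the other way, with a mean of 0.78 in BALB/c and 0.42 in C57BL/6. Fcer2a and Cd22 overlapped between the strains as well. The B cell sum was highest in CONTROL 2 (32.3) and TEST 4 (16.8), the libraries with the highest summed H2-Aa, H2-Ab1 and H2-Eb1 (60.0 and 170). It was at most 4.9 in the other 8, whose summed class II was 3.56 to 29.4. The sum of 9 monocyte and macrophage markers was highest in TEST 4 (15.8), against 2.84 to 9.32 elsewhere. That of 8 dendritic cell markers was highest in TEST 5 (11.6), and 2.62 to 7.97 elsewhere. In TEST 5 it consisted mostly of Xcr1 (7.88), which was above 0 in all 10 libraries, and Zbtb46 (2.88), while Itgax was at 0.34 and Flt3 at 0.11. Every library was under FPKM 1 for 2 of the 10 B cell, 5 of the 8 dendritic cell and 7 of the 9 monocyte and macrophage markers. The part of these cells in the class II levels was not tested, and in bulk RNA fewer cells of a type and less RNA per cell cannot be told apart.

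**Figure D4:**
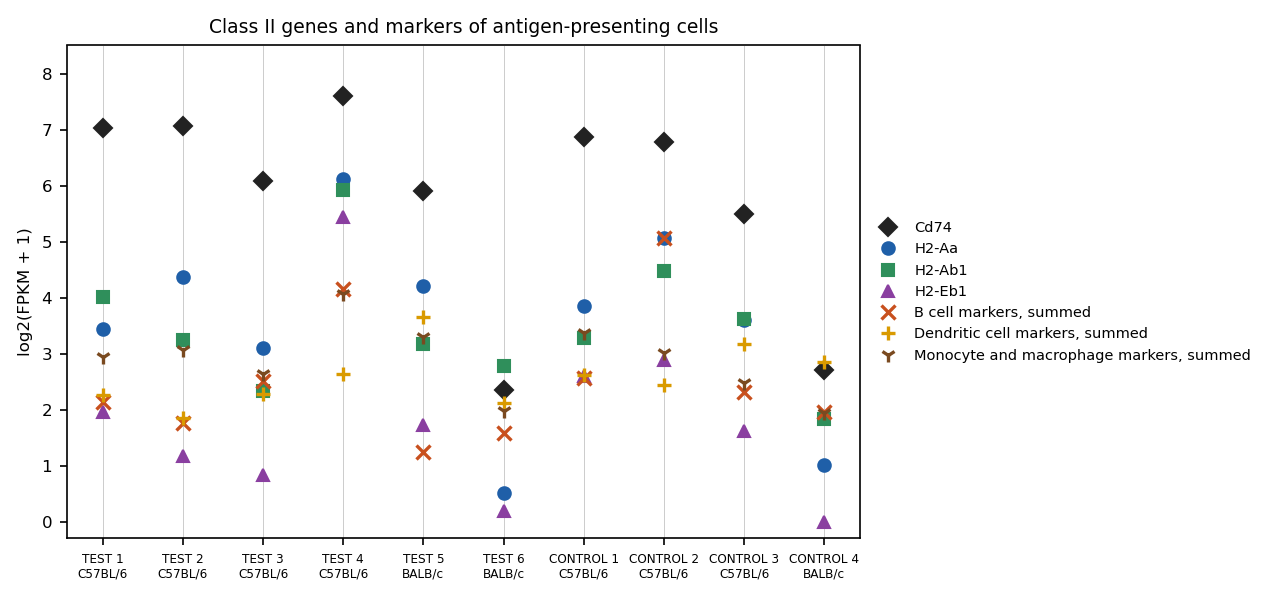
Levels of Cd74, H2-Aa, H2-Ab1 and H2-Eb1 and the summed levels of 3 marker lists in each library, as log2(FPKM + 1). TEST 4 and CONTROL 2 have the highest H2-Aa, H2-Ab1 and H2-Eb1 and the highest B cell marker sums (16.8 and 32.3), and TEST 6 and CONTROL 4 have the lowest Cd74 (4.12 and 5.55).

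H2-DMa, the alpha chain of the peptide exchanger H2-DM, was at 12.3 to 78.7 over all libraries and highest in TEST 3 (78.7). Its beta chains H2-DMb1 and H2-DMb2 were at 0 to 2.97 and 0 to 3.58, and 27.2% and 26.8% of their 50-base stretches occur in the other. H2-DMb1, which met the filter through the C57BL/6 libraries alone, was lower in each BALB/c library than in any C57BL/6 library. Its levels were 0 to 0.16 against 0.38 to 2.97, without a call (limma adjusted p = 0.359). H2-Oa, the alpha chain of H2-DO, was at 1.4 to 15.6 and highest in TEST 6.

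Between TEST and CONTROL, none of the 35 genes tested was called at an adjusted p under 0.05 (limma, Benjamini-Hochberg adjustment over the 10743 genes with an FPKM of at least 1 in 4 or more libraries), against 0.0931% of all genes, which is 10. At an unadjusted p under 0.05 there was 1 of 35, or 2.86%, against 13.7% of all genes. Of the 35 log2 differences 25 were positive and 10 negative, with a median of 0.139 beside 0.003 over all genes tested. These are from FPKM as listed. With ribosomal RNA rows left out the median over all genes tested was -0.149, and the signs of the 35 were not counted. In no gene did the 6 TEST libraries lie entirely above or below the 4 CONTROL libraries, whereas 1.48% of all genes lay above and 1.96% below. For H2-K1 the log2 difference of 0.05 ± 0.56 (SE) had a 95% confidence interval of -1.16 to 1.26, and for B2m the interval around 0.07 ± 0.46 was -0.92 to 1.05. The fit had no strain term and both groups mix strains, so the spread between strains enters these intervals. With strain as a term the number of the 35 genes called was also 0.

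**Figure D5:**
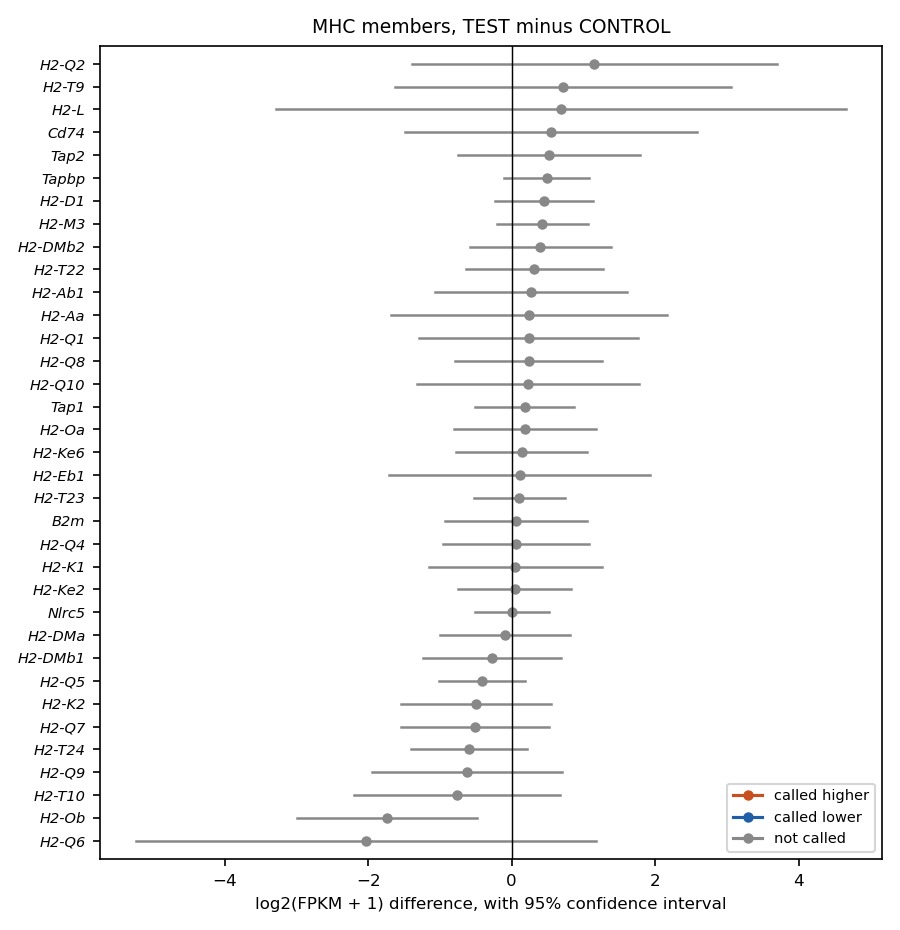
Difference between TEST (n = 6) and CONTROL (n = 4) libraries on the log2(FPKM + 1) scale for the 35 tested genes, with no strain term. Points are estimates and bars are 95% confidence intervals, and no gene was called at an adjusted p under 0.05. H2-Ob is the gene whose interval excludes 0.

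The gene with the smallest p was H2-Ob, the beta chain of H2-DO, the inhibitor of H2-DM. In TEST libraries it was at FPKM 0, 0.33, 1.69, 5.03, 0.45 and 7.3 in the order of their numbers. In CONTROL libraries it was at 3.03, 14, 7.1 and 9.18. TEST 4 and TEST 6 lay within the CONTROL range and the other 4 TEST libraries below it. The log2 difference was -1.74 ± 0.58 (SE), with an unadjusted p of 0.0101 and an adjusted p of 0.245 (limma). H2-Ob is also a B cell gene, and the B cell marker sum was 1.35 to 16.8 in TEST and 2.87 to 32.3 in CONTROL libraries. CONTROL 2 was highest for both. CONTROL 4, next for H2-Ob at 9.18, had a sum of 2.87, and TEST 6, at 7.3, had a sum of 1.99. TEST 4, next for the sum at 16.8, had H2-Ob at 5.03. The part of B cells in the H2-Ob levels was not tested.

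The classical heavy chains had log2 differences of 0.05 ± 0.56 for H2-K1, 0.45 ± 0.32 for H2-D1 and 0.69 ± 1.85 for H2-L, the last with both strains in each group. Those of the loading genes were 0.18 ± 0.32 for Tap1, 0.52 ± 0.59 for Tap2 and 0.49 ± 0.28 for Tapbp, and that of Nlrc5 was 0.01 ± 0.24. H2-Q6, near 0 in 3 of the 6 TEST libraries, had the most negative estimate at -2.04 ± 1.49, with a limma adjusted p of 0.57. For class II, the estimates were 0.24 ± 0.90 for H2-Aa, 0.27 ± 0.62 for H2-Ab1 and 0.55 ± 0.95 for Cd74, with intervals that all included 0. None of these genes passed, so no direction is given for them.

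TEST 4 was the highest library for 21 of the 35 genes, against 37.7% of all genes, and for 13 once ribosomal RNA rows were left out, against 15.1%. On that second scale it remained highest for H2-D1, H2-Q4, H2-Q8, H2-Q9, H2-T10, H2-T22, Tap1, Tap2, H2-Aa, H2-Ab1, H2-Eb1, H2-DMb2 and H2-Ke2, while H2-K1 and Cd74 were highest in TEST 1. Without TEST 4, the number called between TEST and CONTROL was still 0. Over all genes the number called was 10 with every library, 84 without TEST 4, 52 without CONTROL 1, 31 without TEST 6, 2 without TEST 1, and 0 without TEST 2, CONTROL 2 or CONTROL 3. It was also 0 when TEST 1 and TEST 2 were averaged to 1 sample.

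Whether the TEST and CONTROL difference itself differed between strains could be asked only with 1 BALB/c CONTROL library. No gene was called, which is 0% of 11092 (limma, adjusted p under 0.05), and at an unadjusted p under 0.05 there was 1 of 35 against 2.23% of all genes. That gene was H2-Q7. In BALB/c it was at 142 and 125 in TEST and 65.7 in CONTROL, while in C57BL/6 TEST libraries were at 67.2 to 393 and CONTROL libraries at 218 to 306. The interaction was 2.04 ± 0.93 (SE, log2 scale), with an unadjusted p of 0.0479 and an adjusted p of 1.

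Related genes of antigen processing and MHC regulation, 32 in number, were read beside them. Of these 30 were tested and none was called in any of the 3 comparisons, with Fcgrt and Hfe below the filter. Between TEST and CONTROL the smallest p belonged to Ctsb, a lysosomal protease, with a log2 difference of 0.73 ± 0.26 (SE, unadjusted p = 0.0132, limma adjusted p = 0.262). It was followed by the immunoproteasome subunits Psmb10 at 0.65 ± 0.24 and Psmb8 at 0.55 ± 0.27, and by the protease Ctsl at -0.57 ± 0.34. Ctsb and Psmb10 were the 2 of 30 with an unadjusted p under 0.05, which is 6.67% against 13.7% of all genes tested. Between strains the smallest p belonged to Nfya, a subunit of the factor that binds CCAAT boxes, at 19.6 to 23.6 in BALB/c and 9.49 to 15.3 in C57BL/6 (log2 difference 0.70 ± 0.22, limma adjusted p = 0.304). Next came the immunoproteasome subunit Psmb9 at 0.64 ± 0.26, the class II protease Ctss at -0.52 ± 0.27 and Nfyc, another subunit of that factor, at -0.48 ± 0.26. For the interaction they were Ifi30, Psme2, Nfyb and Rfxap, each with an adjusted p of 1.

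The remaining 8 of the 43 genes were below the filter. Ciita, H2-Ea-ps and H2-Eb2 are given above. H2-M5 was listed at 0 in every library. H2-T3, H2-Bl, H2-M10.2 and H2-M2 reached at most 1.51, 0.92, 0.62 and 0.55, and each was listed at 0 in at least 5 of the 10 libraries.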

How the data were processed

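CD4+ T cell RNA was measured in 10 libraries (6 TEST, 4 CONTROL). The deposited table holds FPKM computed by the authors for 17457 genes. Alignment to mm10 used Bowtie. BWA and RSEM, also without a version, appear in the submitters' processing notes. The use of strand in counting is not stated, and without it a gene and an antisense partner cannot be told apart. The study's methods name a Poisson method, NOISeq and EBSeq for differential expression. Because the unit is FPKM, log2(FPKM + 1) was tested here with limma 3.58.1 in R 4.3.3 (trend on, robust off, two-sided, Benjamini-Hochberg adjustment over all genes tested, called under 0.05).

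TEST and CONTROL were compared, with no covariate, over genes with an FPKM of at least 1 in 4 or more libraries. The strains, with group as a covariate, and the group by strain interaction were compared over those reaching it in 3 or more. Sequence sharing was counted as 50-base stretches of GENCODE M21 transcripts, and promoters came from RefSeq on GRCm38.p6. The fits were tested on simulated data.

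The 43 genes and all lists were chosen with earlier results of these data known. Values in every library are given for genes called in either comparison, the classical class I and class II genes, B2m, Cd74, Ciita, Nlrc5, Tap1, Tap2, Tapbp and the 8 nonclassical genes with the highest mean. Of the 32 related genes, those with the 4 smallest p are named. The level of 1 listed marker is not reported here. Alternatives covered the pseudocount, the filter, the scaling, the prior, covariates, subsets and leaving out each library in turn.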

Additional observations from a re-analysis of the deposited data

Results flagged for a closer look

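Within TEST, CONTROL or C57BL/6 libraries, a library was marked where its gap to the nearest other value, divided by the range of the group, exceeded Dixon's 95% value. This was so in 34 of 105 tests on 35 genes, for 22 genes. Chance marks about 1 in 20 groups of normally spread values, but TEST and CONTROL each hold both strains. Most of the marked values, 28 of 34, belonged to TEST 4, the library with 1.18% of FPKM in ribosomal RNA rows. The rule was applied to FPKM as listed, on which TEST 4 was the highest library for 37.7% of 11092 genes. It was not applied to all genes, so the share marked among them is unknown and the count is not a result about the MHC genes.

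TEST 4 stood above the rest in both TEST and C57BL/6 for 10 genes. They were H2-D1 at FPKM 1902, H2-Q4 at 532, H2-Q8 at 234, H2-Q9 at 407, H2-T22 at 147.0, Tap1 at 226, Tap2 at 116, H2-Aa at 68.4, H2-Ab1 at 59.6 and H2-Eb1 at 42.4. Within TEST alone it did so for H2-Q7 at 393 and H2-T10 at 72.8. Within C57BL/6 alone it did so for H2-Q6 at 257, Tapbp at 147, H2-Ke2 at 54.5, H2-DMb2 at 3.58, H2-Q2 at 5.87 and H2-T9 at 4.25.

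H2-Q2 and H2-T9 in TEST 4 lay between the other C57BL/6 libraries, at no more than 0.68, and the BALB/c libraries, at no less than 20.3. Of the other genes called higher in BALB/c, H2-Q1 was at 1.41 in TEST 4, the highest C57BL/6 value, while H2-L at 0.81 and H2-Q10 at 0.12 were inside the range of the other C57BL/6 libraries.

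In CONTROL 4, the BALB/c library among CONTROL libraries, H2-L at 281, H2-Q2 at 22.9 and H2-T9 at 20.3 stood above the C57BL/6 libraries. In TEST 6, also BALB/c, H2-M3 at 44.2 and H2-Oa at 15.6 stood above the other TEST libraries. In TEST 3, H2-DMa at 78.7 stood above the other C57BL/6 libraries, which were at 12.3 to 33.0.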

How the results depend on the processing

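The number of MHC and antigen-processing genes called between TEST and CONTROL was 0 in all 23 alternatives, and that of the interaction was 0 in all 20. The interaction without CONTROL 4 could not be fitted, because it is the only BALB/c CONTROL library. The number called between strains was 8 and stayed within 1.5 times of that in 19 of 23 alternatives. It was 5 with no filter, 3 within TEST libraries alone, and 5 to 10 when 1 library at a time was left out, with 5 without TEST 6 or without CONTROL 4, and 10 without TEST 4. H2-L, H2-T9 and H2-Q10 were called in all 23 alternatives, H2-Q2 in 22, H2-Q1 in 21, H2-K1 in 17, H2-Q9 in 15 and Cd74 in 13, and none changed sign. Between TEST and CONTROL, TPM scaling and leaving out ribosomal RNA rows moved the median log2 difference of all genes from 0.003 to -0.155 and -0.149. H2-Ob kept its negative sign in all 23 alternatives, at -2.77 to -0.86, with limma adjusted p of 0.108 to 0.608. Over all genes the numbers called under the alternatives were 0 to 84 between TEST and CONTROL (10 as reported) and 33 to 99 between strains (70 as reported), and for the interaction 32 with no filter and 0 otherwise.

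No paired analysis was possible because the labels give no replicate numbers shared between groups. In simulated data with 200 changed genes of 11092 the strain comparison found 0% at a log2 change of 1, 82% at 2 and 99% at 4, and the TEST and CONTROL comparison (10743 genes) found 21%, 91.5% and 99.5%. The table gives no read counts, so counting error is unknown, and values near 0 rest on an unknown number of reads. Only 1 BALB/c CONTROL library was present, and the spleen and the lymph node libraries were not compared.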
